A study of Homo sapiens with 6 samples.

Results

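The miR-200 family, miR-205 and miR-9 are miRNAs tied to epithelial identity, and their levels were examined in BCSCs, stem-like cells derived from MDA-MB-231, a mesenchymal-like triple-negative breast cancer line. Both arms of miR-200a, miR-200b, miR-200c, miR-141, miR-205 and miR-9 were looked for by exact name together with miR-429, 13 mature miRNAs in all, among the 449 miRNAs listed by the authors. A total of 8 were listed and 5 were not. The control group held 3 libraries of BCSCs at 0 μg/mL rosmarinic acid (RA) and the RA group held 3 libraries after 200 μg/mL RA, both at 48 h and both labelled WT. RA is a natural phenolic acid, here extracted from Sarcandra glabra. The cells of both groups had been grown as spheres in serum-free, low-attachment culture with basic fibroblast growth factor and EGF. Serum medium with RA is described for the migration assay, and the sequencing methods do not name the treatment medium. All libraries came from 1 parental line, and the sequencing methods do not say whether the control medium held the DMSO in which RA was dissolved. The labels mention 3 wells per group but do not say whether each library came from its own well, so p-values here cover only how far these libraries scatter, which may be technical.

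The miR-200 family forms a pair of clusters that are transcribed together, miR-200b, miR-200a and miR-429 in one and miR-200c and miR-141 in the other. Its members repress ZEB1 and ZEB2, the transcription factors that switch off E-cadherin, and ZEB1 in turn represses both clusters, so that high miR-200 marks epithelial cells and low miR-200 marks cells after epithelial-mesenchymal transition (EMT). miR-205 also targets ZEB1 and ZEB2 and is abundant in basal and squamous epithelium. miR-9-5p acts in the other direction in breast cancer cells by targeting CDH1, the mRNA of E-cadherin, and is otherwise best known as a miRNA of neural progenitors and brain.

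Mature sequences are given below in RNA letters from RefSeq (GRCh38.p14), which held 12 of the 13 names, all except miR-141-5p. Of these the 8 listed miRNAs, miR-141-3p and miR-205-5p are printed, and miR-200c-5p and miR-205-3p, neither listed, are left out. They are shown because the family is divided by its seed, bases 2 to 8, which is in capitals and largely sets which mRNAs a miRNA can bind.
miR-200b-3p: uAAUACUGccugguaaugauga
miR-200c-3p: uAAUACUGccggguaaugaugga
miR-429: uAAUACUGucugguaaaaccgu
miR-200a-3p: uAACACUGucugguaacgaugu
miR-141-3p: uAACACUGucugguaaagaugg
miR-200a-5p: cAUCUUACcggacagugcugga
miR-200b-5p: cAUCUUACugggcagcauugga
miR-205-5p: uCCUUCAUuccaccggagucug
miR-9-5p: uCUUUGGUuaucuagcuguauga
miR-9-3p: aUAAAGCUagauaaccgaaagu
The 3p arms of miR-200b, miR-200c and miR-429 share a seed, and those of miR-200a and miR-141 share another that differs from it by C4U (miR-200a-3p to miR-200b-3p, counted from 1 at the 5′ end). The 5p arms of miR-200a and miR-200b share one more seed. The 8 listed miRNAs carried 5 seeds. No other listed miRNA had the seed of any of the 12 with a sequence, by a search of all mature human sequences in the same RefSeq set. miR-200b-3p and miR-200c-3p differed at U11G and A22G over their shared 22 bases, and miR-200a-3p and miR-141-3p at C17A and U22G.

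In GRCh38 the hairpins of miR-200b (chr1:1167104-1167198) and miR-429 (chr1:1169005-1169087) start 1901 bases apart on the plus strand, outside any other gene in GENCODE, with miR-200a-3p between them (chr1:1167916-1167937). The hairpins of miR-200c (chr12:6963699-6963766) and miR-141 (chr12:6964097-6964191) start 398 bases apart in an intron of the long non-coding RNA MIR200CHG, and that of miR-205 (chr1:209432133-209432242) overlaps an exon of MIR205HG. Mature miR-9 can come from 3 hairpins, MIR9-1 in an intron of C1orf61 (chr1:156420341-156420429), MIR9-2 overlapping an exon of LINC00461 (chr5:88666853-88666939) and MIR9-3 in an intron of MIR9-3HG (chr15:89368017-89368106). Both arms are identical in the 3, so reads cannot be assigned to a locus. The submitters' processing notes name hg19, and GRCh38 positions were not matched to it.

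The values were CPM, counts per fixed number of reads on the authors' scale, and the reads behind them were recovered because each value divided evenly by what 1 read is worth in its library. miRNA reads ranged from 2190324 to 4111404 in the control libraries and from 176590 to 1158116 in the RA libraries. A miRNA with 3 reads stood at 0.698 to 1.58 CPM in a control library but at 2.96 to 15.6 CPM in an RA library, so low members were measured far less precisely after RA. Depth went with the group, and its effect cannot be told apart from that of RA. Intervals below are exact (Clopper-Pearson) 95% binomial intervals and cover counting error only. All 7 miRNAs of a list drawn up for MDA-MB-231 and related mesenchymal-type lines had reads, which does not identify the line. Summed CPM of the list ran from 298444 to 354889 over control libraries and from 236889 to 268449 over RA libraries. Most of it was miR-21-5p (control mean 267460 CPM, RA mean 198374 CPM) and miR-10b-5p (43445 and 39695 CPM). The others were miR-100-5p, miR-221-3p, miR-31-5p, miR-222-3p and miR-146a-5p. In limma 1 of the 7 was called, miR-31-5p, lower after RA (log2 fold change -0.88, adjusted p = 0.022 from limma). Of all miRNAs 4.68% were lower. miR-31-5p had a control mean of 6199 CPM and an RA mean of 3314 CPM. No reference levels of MDA-MB-231 were compared, so whether each of the 7 marks that line or stood at its level was not tested. In bulk libraries, fewer cells with a miRNA and less of it per cell cannot be told apart.

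miR-9-5p was the most abundant of the set, at rank 32 of 449 by mean CPM. It stood at 5278, 4879.8 and 5025 CPM in control replicates 1 to 3, and at 3895, 6022 and 4868 CPM in RA replicates 1 to 3. The controls lay close together, and the RA libraries fell on both sides of them. The RA libraries differed from each other beyond counting error, with intervals of 3775 to 4019, 5681 to 6378 and 4638 to 5106 CPM. The control mean was 5061 ± 202 CPM and the RA mean 4928 ± 1065 CPM (SD, n = 3 libraries a group), with a log2 fold change of -0.06 (standard error 0.20, 95% interval -0.50 to 0.37, adjusted p = 0.88 from limma).

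miR-9-3p, the other arm of the same hairpins, was measured at 388, 386 and 421 CPM in the controls and at 354, 234 and 314 CPM after RA, from 45 reads in RA replicate 2. Every RA library lay below every control. The means were 398 ± 19.8 and 301 ± 61.1 CPM (SD, n = 3 libraries a group). The log2 fold change was -0.42 (standard error 0.22, 95% interval -0.91 to 0.06), and it did not pass in limma (adjusted p = 0.31). Groups without overlap were common, since 26.2% of the 260 miRNAs averaging 10 CPM or more had every RA library below every control. The median log2 fold change of those 260 was -0.17.

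miR-200b-3p was the leading miR-200 family member, at rank 134. Its levels were 217, 145 and 159 CPM in the controls and 156, 156 and 139.6 CPM after RA. The high value was control replicate 1, whose interval of 196 to 239 CPM lay above those of the other controls (133 to 156 and 145 to 173 CPM), and the remaining libraries fell together. The means were 173 ± 38.3 CPM and 151 ± 9.56 CPM (SD, n = 3 each), with a log2 fold change of -0.18 (standard error 0.25, 95% interval -0.73 to 0.36, adjusted p = 0.71 from limma). Its highest RA library was 1.12-fold above its lowest. The median of this spread was 1.70-fold over 250 miRNAs with at least 10 CPM and reads in every library. RA replicates 2 and 3 held 30 and 48 reads of it, with intervals of 105 to 223 and 103 to 185 CPM. Counting error there was wider than 1.12-fold, so this spread does not show a steady level. In the controls its spread lay above the median of the same miRNAs, which was 1.28-fold.

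miR-200a-3p, which carries the other seed of the 3p arms, stood at 50.5, 45.4 and 46.9 CPM in the controls. After RA it stood at 59.2, 26.0 and 37.8 CPM, above every control in replicate 1 and below every control in replicates 2 and 3. The value of RA replicate 2 rested on 5 reads, with an interval of 8.46 to 60.8 CPM that spans all the controls. The log2 fold change was -0.29 (standard error 0.38, 95% interval -1.12 to 0.55, adjusted p = 0.70 from limma). miR-200a-5p, from the other arm of that hairpin, was at 8.94, 7.68 and 4.82 CPM in the controls. After RA it was at 4.94, 15.6 and 2.91 CPM, from 5, 3 and 1 reads. Its direction was not settled, with a log2 fold change of -0.13 (95% interval -1.62 to 1.37, adjusted p = 0.92 from limma).

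miR-200c-3p of the chromosome 12 cluster was low in both groups. It was measured at 5.79, 3.96 and 4.82 CPM in the controls, from 11, 17 and 15 reads, and at 2.96, 5.21 and 5.82 CPM after RA, from 3, 1 and 2 reads. The groups overlapped, and the log2 fold change was -0.07 (95% interval -1.43 to 1.28, adjusted p = 0.95 from limma). miR-200c-5p and miR-141-3p and miR-141-5p of the same cluster had no value among the 449 listed miRNAs. Neither arm of miR-205 was listed. The lowest entries that were listed rested on 1 read over all 6 libraries, as 29 miRNAs did. No level was inferred for the 5 miRNAs without a value.

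miR-429 and miR-200b-5p were seen in controls only. miR-429 had 8, 4 and 0 reads in the controls, which are 4.21, 0.931 and 0 CPM, and miR-200b-5p had 2, 6 and 3 reads, which are 1.05, 1.40 and 0.963 CPM. Neither had a read in any RA library. At the mean control level the RA libraries would have held 1.74, 0.329 and 0.589 reads of miR-429 and 1.15, 0.218 and 0.391 reads of miR-200b-5p. A miRNA with no reads in the RA group could still be present at 1.94 CPM (3 reads over the group), above the control means of 1.71 and 1.14 CPM, so a difference was not detectable at this depth. In limma neither passed (adjusted p = 0.49 and 0.41).

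**Figure D1:**
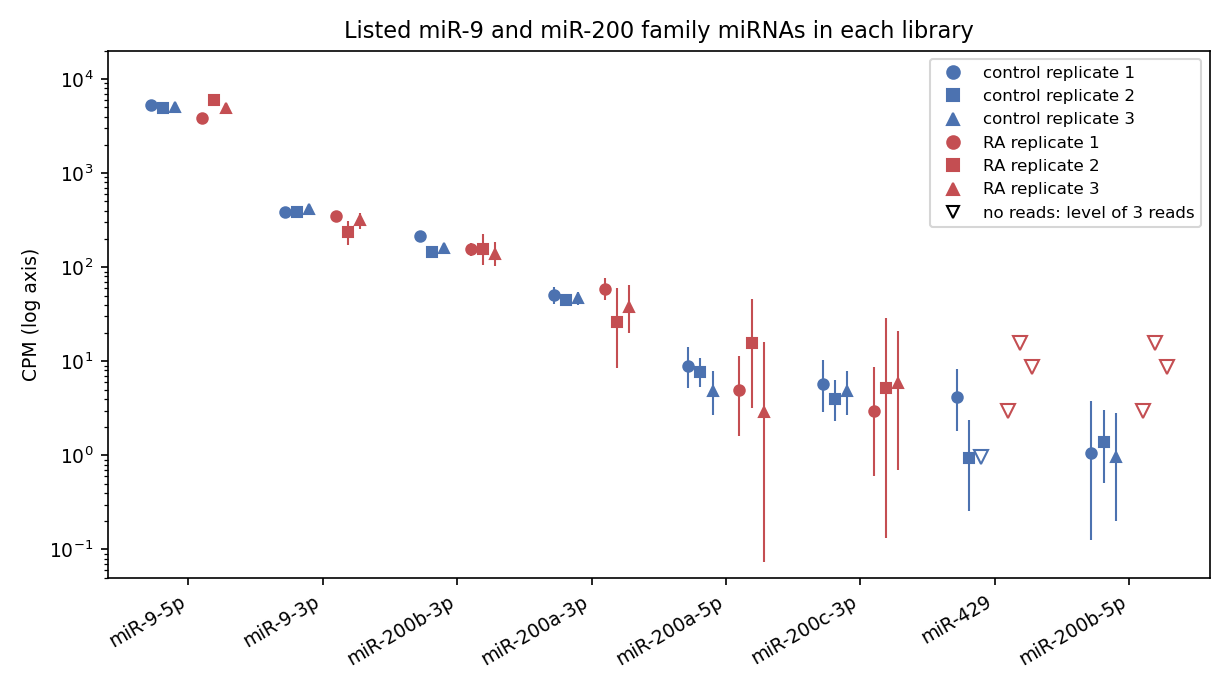
CPM (log axis) of the 8 listed miRNAs in each of the 6 libraries, with bars for exact 95% binomial intervals. Open triangles stand at the level of 3 reads in libraries with no read. miR-9-5p lies at 3895 to 6022 CPM in every library, miR-200b-3p at 139.6 to 217 CPM and miR-200c-3p at 2.96 to 5.82 CPM, and the triangles of the RA libraries lie near or above the control values of miR-429 and miR-200b-5p.

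In order of mean level the 8 were miR-9-5p, miR-9-3p, miR-200b-3p, miR-200a-3p, miR-200a-5p, miR-200c-3p, miR-429 and miR-200b-5p. The first 5 were separated by more than their spread, since the lowest library of each lay above the highest library of the next. The ranges of miR-200a-5p and miR-200c-3p, of miR-200c-3p and miR-429, and of miR-429 and miR-200b-5p overlapped. Mature miRNAs are of nearly equal length, so CPM was compared between them with no correction for length. The libraries were made by adapter ligation and amplification, and how evenly these took up each sequence was not measured. Orders, ratios and shares set between different miRNAs are therefore of reads, not of molecules.

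The 6 listed miR-200 family miRNAs summed to 287, 204 and 216 CPM in the controls and 223, 203 and 186 CPM after RA. These sums overlapped, and miR-200b-3p made up 69.9% to 76.9% of the family's reads in every library. miR-21-5p, the most abundant miRNA of these cells, was 862-fold to 1352-fold above the family's sum. Both miR-9 arms summed to 5666, 5266 and 5447 CPM in the controls and 4249.8, 6256 and 5182 CPM after RA. miR-9-5p was thus 24.4-fold to 33.8-fold above miR-200b-3p in the controls and 25-fold to 38.5-fold above it after RA.

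None of the 8 listed miRNAs passed an adjusted p under 0.05 in limma, where 7.57% of all 449 miRNAs passed, 13 higher (2.90%) and 21 lower (4.68%). With CPM set by each library's own total, 17 were higher and 11 lower, and the median of all log2 fold changes went from 0.00 to 0.13. At an unadjusted p under 0.05, 0 of the 8 passed in limma, against 21.8% of all miRNAs. In edgeR (quasi-likelihood, recovered reads) 0 passed at an adjusted or an unadjusted p, against 14.7% of all miRNAs at an adjusted p. DESeq2 called 0 of the 6 to which it gave an adjusted p, against 19.0% of the 368 miRNAs given one, and it gave none to miR-200b-5p and miR-429. The median log2 fold change of the 8 was -0.23, against 0.00 over all 449 and -0.17 over the 260 averaging 10 CPM or more. Groups did not overlap for 2 of the 8, miR-9-3p and miR-200b-5p, or 25%, close to the 25.8% of all miRNAs (17.1% lower and 8.69% higher). These misses do not show equal levels. The 95% intervals stayed within a 2-fold change in either direction for miR-9-5p, miR-9-3p and miR-200b-3p, and reached past it for the other 5. Without RA replicate 2 or RA replicate 3 miR-200b-5p passed in limma (log2 fold change -1.09, adjusted p = 0.046 and 0.030), where the remaining RA libraries were again all at 0 reads.

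**Figure D2:**
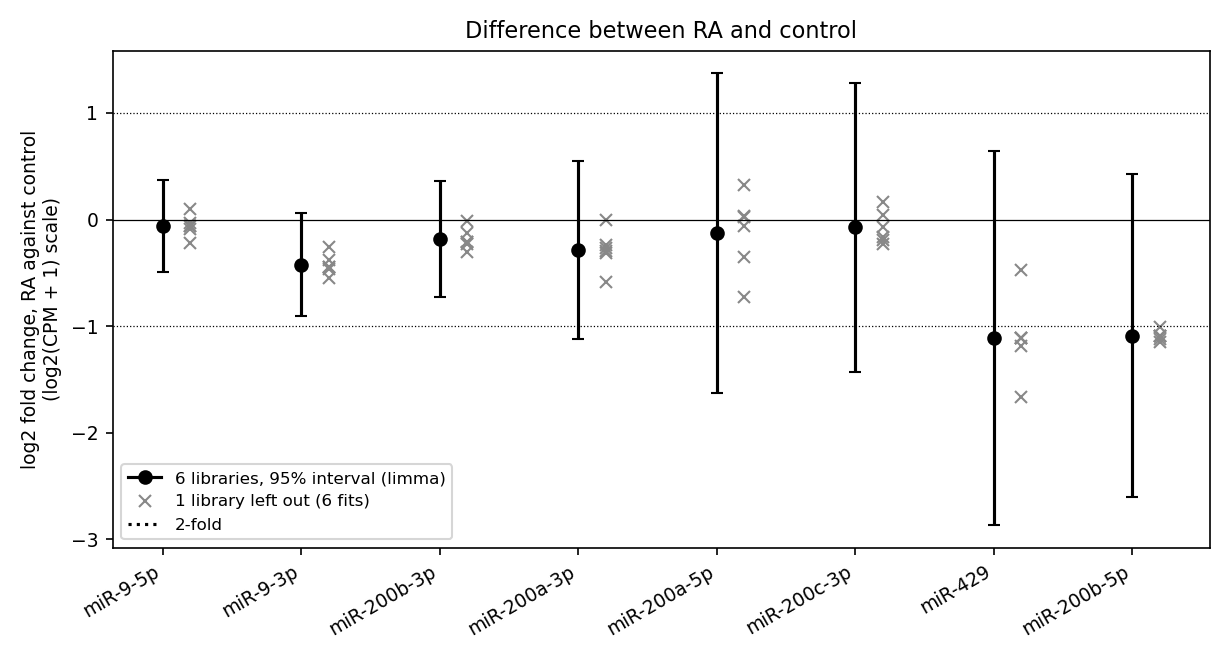
Log2 fold change of RA against control on the log2(CPM + 1) scale for the 8 listed miRNAs. Black points and bars are limma estimates with 95% intervals over 6 libraries, crosses are fits with 1 library left out, and dotted lines mark a 2-fold change. All bars cross 0, and those of miR-9-5p, miR-9-3p and miR-200b-3p stay between the dotted lines.

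Shares within a library do not depend on how libraries were scaled, and 4 of them were compared between groups. miR-9-3p made up 6.84%, 7.33% and 7.73% of the reads of both miR-9 arms in the controls and 8.34%, 3.75% and 6.06% after RA. RA replicate 2 stood apart, since its interval of 2.75% to 4.98% lay below every control interval, the lowest of which began at 6.37%. RA replicate 1 was above every control, so that the group means of 7.30% ± 0.444 and 6.05% ± 2.30 (SD, n = 3 each) gave no call by an exact permutation test (two-sided p = 0.5, where 0.1 is the smallest that 3 against 3 libraries allow).

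Of the reads of miR-200a-3p and miR-200b-3p, neighbours in 1 cluster, miR-200a-3p made up 18.9%, 23.9% and 22.8% in control libraries, against 27.5%, 14.3% and 21.3% in RA libraries. The RA values lay around the controls, and the interval of RA replicate 2, from 35 reads, ran from 4.81% to 30.3%. miR-200c-3p made up 2.60%, 2.66% and 2.95% of the reads of miR-200b-3p and miR-200c-3p in the controls and 1.86%, 3.23% and 4.0% after RA. The control shares were close to each other, from 423, 638 and 509 reads, while those after RA rested on 1 to 3 miR-200c-3p reads. The 2 miRNAs differ at few bases, and whether some miR-200c-3p reads came from miR-200b was not tested. miR-200a-5p made up 12.9% ± 3.15 of the reads of both miR-200a arms in the controls and 17.4% ± 17.4 after RA (SD, n = 3 each), while miR-200b-5p was 0.483% to 0.957% of both miR-200b arms in the controls. Exact permutation p-values for the other 3 shares were 0.9, 0.7 and 1 (two-sided), and all 4 were 1 after Benjamini-Hochberg adjustment.

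**Figure D3:**
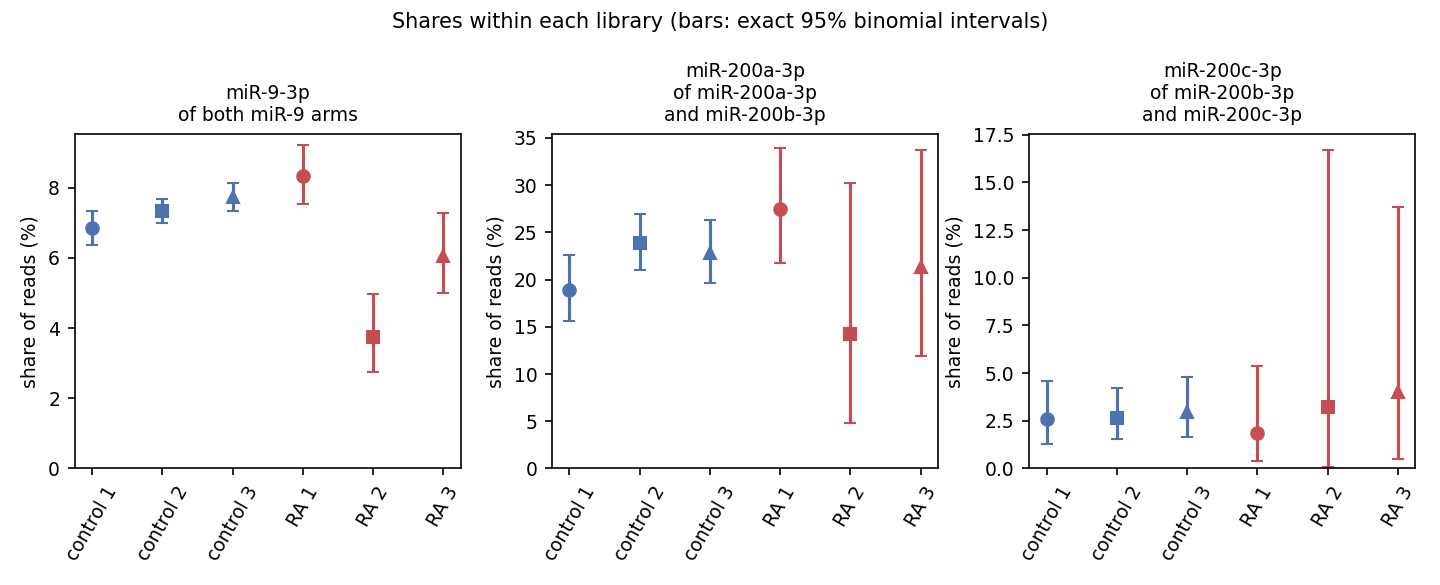
Share of reads (%) in each library, with exact 95% binomial intervals, for miR-9-3p among both miR-9 arms (left), miR-200a-3p among miR-200a-3p and miR-200b-3p (middle) and miR-200c-3p among miR-200b-3p and miR-200c-3p (right). In the left panel RA replicate 2, at 3.75%, lies below the controls at 6.84% to 7.73%, and in the other panels the RA intervals overlap those of the controls.

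Similar profiles were looked for among 260 miRNAs averaging 10 CPM or more, by the root-mean-square difference of log2(CPM + 1), centred on each miRNA's own mean, over the 6 libraries. These are descriptions of 6 libraries that share their scaling. miR-9-5p was closest to miR-330-5p, miR-148b-5p and miR-151a-3p (differences of 0.07, 0.12 and 0.16 log2, median 0.46 over 259 candidates). Its partner arm miR-9-3p was at 0.40 log2 from it, and was itself closest to miR-30c-5p, miR-486-5p and miR-100-5p (0.06, 0.10 and 0.12 log2). miR-200b-3p was closest to miR-206, miR-27b-3p and miR-25-3p (0.12, 0.16 and 0.18 log2), and miR-200a-3p to miR-15b-3p, miR-361-3p and miR-222-3p (0.06, 0.09 and 0.12 log2). The cluster neighbours miR-200a-3p and miR-200b-3p were 0.36 log2 apart. The median distance to all candidates was 0.43 log2 for miR-200b-3p and 0.49 log2 for miR-200a-3p. The profile of miR-200a-3p rested on 5 and 13 reads in RA replicates 2 and 3. miR-200a-5p was closest to miR-301a-3p, miR-29c-5p and miR-1249-3p (0.27, 0.32 and 0.38 log2), and miR-200c-3p to miR-151a-3p, miR-196a-5p and miR-9-5p (0.15, 0.18 and 0.18 log2), both on few reads after RA.

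Other miRNAs linked to epithelial identity differed widely in level. In the controls miR-192-5p and miR-194-5p stood above miR-200b-3p. miR-182-5p, miR-183-5p, miR-96-5p and miR-375-3p had 0 to 23 reads in any library. Of 9 such miRNAs 8 were listed, all except miR-203b-3p, and none passed in limma, with a median log2 fold change of -0.19. miR-192-5p, which is abundant in gut and liver epithelium, was at 685 ± 155 CPM in the controls and had 3316, 72 and 157 reads after RA, up to 3274 CPM in RA replicate 1. miR-194-5p, its cluster partner, stood at 247 ± 7.48 and 234 ± 156 CPM, and miR-215-5p, which shares its seed with miR-192-5p, at 20.6 ± 4.94 and 22.4 ± 24.4 CPM (SD, n = 3 each). miR-203a-3p, a miRNA of differentiating keratinocytes, had 2, 1 and 5 reads in the controls and 65, 0 and 0 reads after RA. RA replicate 1 also held most reads of miR-122-5p, a liver miRNA, with 9614 reads against 1 and 0 in the other RA libraries. Of 13 markers of blood, liver, endothelium and muscle 12 were listed, all except miR-133a-3p, with summed levels of 2561 to 2972 CPM in the controls and 2386 to 13176 CPM after RA. Of the 12, miR-451a, a red blood cell miRNA, was higher (log2 fold change 4.11, adjusted p = 0.031 from limma), with 10, 145 and 19 reads in control libraries against 835, 5 and 122 in RA libraries, and none was lower. That call ended without control replicate 1 or 3 or RA replicate 1 or 3 (3.09 to 3.76, adjusted p = 0.056 to 0.44 from limma). The part of these markers in the level of miR-192-5p was not tested. The miR-200 family's sum was 223 CPM in RA replicate 1, against 203 and 186 CPM in RA replicates 2 and 3 and 204 to 287 CPM in the controls. The part of these markers in that sum was not tested either.

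Of 16 further miRNAs known to restrain EMT 13 were listed, of which 2 were lower after RA and none was higher in limma, where 4.68% of all miRNAs were lower, and their median log2 fold change was -0.43. The lower ones were miR-30a-5p (-1.68, adjusted p = 9.3e-04 from limma), which targets SNAI1, and miR-101-3p (-1.16, adjusted p = 0.0070 from limma), which targets EZH2. The call of miR-30a-5p ended without RA replicate 3 (-1.51, adjusted p = 0.052 from limma) and that of miR-101-3p without control replicate 1 (-1.08, adjusted p = 0.082) or RA replicate 3 (-1.16, adjusted p = 0.12). miR-30a-5p had a control mean of 27986 ± 5686 CPM and an RA mean of 8739.5 ± 1701 CPM (SD, n = 3 libraries a group). The other abundant ones of the list were miR-148a-3p (control mean 152825 ± 30747 CPM, RA mean 140007 ± 37139 CPM), miR-34c-5p (5014 ± 453 and 3377 ± 592 CPM) and miR-218-5p (4423 ± 145 and 3159 ± 101 CPM), none of which passed. miR-145-5p stood at 416 ± 93.4 and 219 ± 55.3 CPM (SD, n = 3 each, log2 fold change -0.93, adjusted p = 0.053 from limma). miR-138-5p, miR-153-3p and miR-124-3p were not listed.

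Of 15 miRNAs known to favour EMT or to act against the miR-200 family 13 were listed and none passed in limma, and the list's median log2 fold change was -0.08. The most abundant were miR-21-5p, miR-10b-5p, which acts downstream of TWIST1 in breast cancer cells, miR-27a-3p (control mean 5595 ± 887 CPM, RA mean 7277 ± 799.9 CPM) and miR-221-3p (5806 ± 347 and 6559.5 ± 532 CPM, SD over 3 libraries). miR-9-5p, at 5061 CPM in the controls, lay at a level like that of the last pair. miR-103a-3p, which lowers the miR-200 family by targeting DICER1 in breast cancer cells, stood at 4527 ± 449 and 2858 ± 447 CPM (SD, n = 3 each, adjusted p = 0.053 from limma). miR-22-3p, which lowers it through TET enzymes, stood at 2061 ± 353 and 3358 ± 938 CPM (SD, n = 3 each, adjusted p = 0.088 from limma). miR-107 stood at 434 ± 56.2 and 273 ± 26.2 CPM (SD, n = 3 each, adjusted p = 0.075 from limma). miR-373-3p and miR-520c-3p were not listed.

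**Figure D4:**
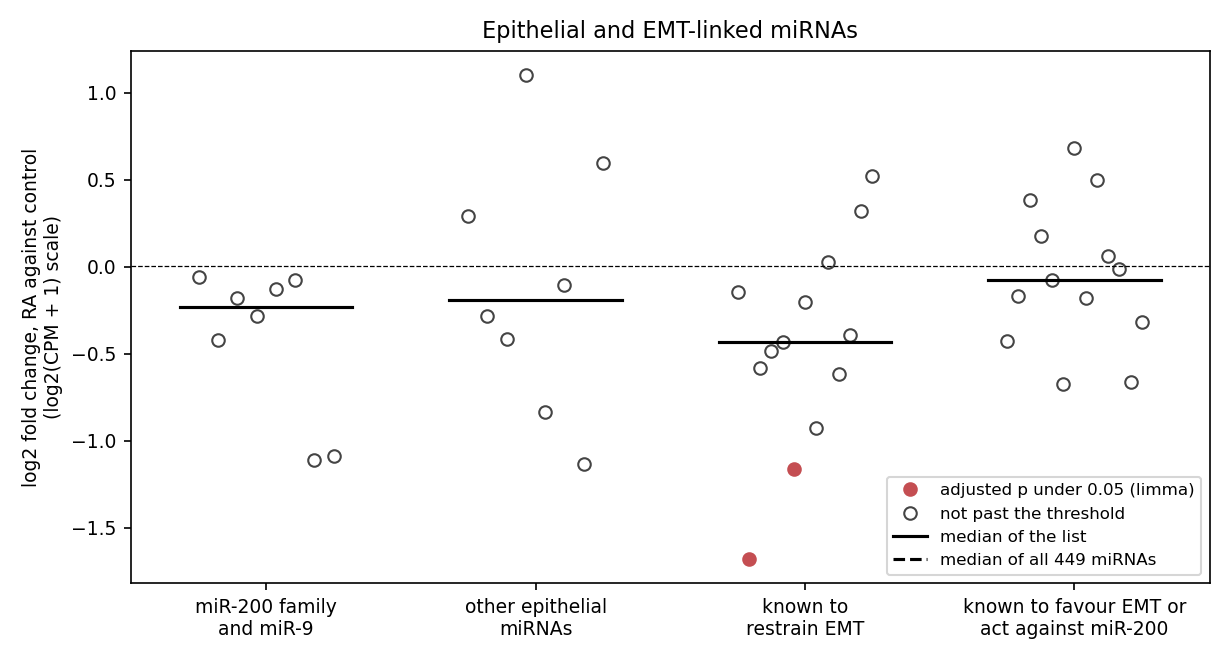
Log2 fold change of RA against control (log2(CPM + 1) scale, limma) for each listed miRNA of 4 groups, with filled points past an adjusted p of 0.05, solid lines at each list's median and a dashed line at the median of all 449 miRNAs. The filled points are miR-30a-5p and miR-101-3p, and the medians are -0.23, -0.19, -0.43 and -0.08 from left to right.

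Since miR-9 is abundant in brain and the labels' RNA extraction note is about brain although the study's methods are about BCSC cultures, 12 neural markers other than miR-9 were examined. Of these 4 were listed and 8 were not, among the latter miR-124-3p, miR-137-3p, miR-153-3p, miR-338-3p, miR-488-3p, miR-138-5p, miR-219a-2-3p and miR-129-2-3p. No level was inferred for those not listed, such as miR-124-3p, the most abundant miRNA of neurons. Whether any miR-9 reads came from brain RNA was not tested. Summed levels of the 4 listed markers were 272 to 280.03 CPM in the controls and 369.9 to 1199.7 CPM after RA. Nearly all of this was miR-128-3p, at 263 ± 5.67 and 722 ± 414 CPM (SD, n = 3 each), which many tissues express. miR-128-3p was higher after RA (log2 fold change 1.29, adjusted p = 0.039 from limma), a call that ended without RA replicate 3 or any 1 of the controls (1.28 to 1.32, adjusted p up to 0.36 from limma). The other listed markers, miR-129-5p, miR-219a-5p and miR-132-3p, had 0 to 36 reads in any library.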

How the data were processed

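The deposited values were a normalized signal, CPM that the authors computed on effective library sizes, with a log2 group value by the authors that was not used. Submitters' processing notes name hg19. An aligner is not given in the sources used here. Dividing by each library's lowest nonzero value gave whole reads (tolerance 0.01) for 100% of 2694 values. In R 4.3.3, limma 3.58.1 (trend option) tested log2(CPM + 1) for all 449 miRNAs, and p-values were adjusted by Benjamini-Hochberg. edgeR 4.0.16 and DESeq2 1.42.0 were run on those reads, and edgeR called 66 miRNAs. Other alternatives were pseudocounts of 0.5 and 5, a filter at 1 CPM in 3 libraries, scaling to the library total, a replicate block and leaving out each library. limma and edgeR were tested on simulated reads of these depths, where both recovered the direction of nearly all called changes and limma made false calls more often than its threshold allows. Shares used exact permutation tests (scipy 1.17.1). All 13 miRNAs are named, with the most abundant, the called and the unlisted miRNAs of each list and the 3 nearest profiles. miR-103a-3p, miR-107, miR-22-3p, miR-145-5p and miR-122-5p and the miRNAs of the closing observations were picked after their values were seen. So were the less abundant miRNAs named from the epithelial and MDA-MB-231 lists. The members and lists were chosen with earlier results of these data known. Sequences came from RefSeq and annotations from GENCODE release 29, both on GRCh38.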

Additional observations from a re-analysis of the deposited data

How the results depend on the processing

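Over all 6 libraries no listed miR-200 family or miR-9 miRNA passed under an alternative that tested it. miR-429 and miR-200b-5p were removed by the filter at 1 CPM in 3 libraries and had no adjusted p in DESeq2. Without 1 library the count of lower ones was 0 to 1, the 1 being miR-200b-5p at a log2 fold change of -1.09 without RA replicate 2 or RA replicate 3. Signs turned for small changes. Scaling to the library total gave a log2 fold change of 0.049 for miR-200c-3p and 0.076 for miR-9-5p. DESeq2 gave 0.046 for miR-200a-3p, 0.12 for miR-200a-5p, 0.032 for miR-200c-3p and 0.14 for miR-9-5p. Leaving out 1 library gave -0.72 to 0.32 for miR-200a-5p, -0.23 to 0.16 for miR-200c-3p and -0.22 to 0.10 for miR-9-5p. miR-9-3p and miR-200b-3p kept their sign in all 13 alternatives, at -0.55 to -0.20 and -0.30 to -0.01. Over all miRNAs 38 were higher with edgeR and 48 with DESeq2, 11 were lower when scaled to the library total, and leaving out 1 library gave 6 to 21 higher and 4 to 28 lower. The replicate numbers did not pair the libraries (correlations of same-numbered deviations 0.12, -0.19 and 0.13), and a replicate block gave 24 higher and 31 lower. Among other named miRNAs, miR-451a, called at 4.11 (adjusted p = 0.031 from limma), and miR-31-5p at -0.88 (adjusted p = 0.022) lost their calls without some libraries (adjusted p up to 0.44 and 0.16 from limma), and miR-451a and miR-128-3p lost theirs with a pseudocount of 5 (adjusted p = 0.068 and 0.066 from limma), miR-128-3p also with the filter (adjusted p = 0.051 from limma). The cause of these changes was not tested. Depth limits every member under 10 CPM after RA.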

Other observations

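Some miRNAs of other tissues were present at levels above the miR-200 family in every library. miR-142-5p, a miRNA of blood cells, had a control mean of 1003 ± 158 CPM and an RA mean of 929.8 ± 182 CPM, and miR-206, a miRNA of skeletal muscle, of 758 ± 153 and 650.2 ± 57.4 CPM (SD, n = 3 each). Neither passed in limma. Of the other blood cell miRNAs, miR-142-3p had 1088, 3026 and 1775 reads in the controls, miR-486-5p 757, 1558 and 1211 reads and miR-451a 10, 145 and 19 reads. Fewer reads were seen there of others, with 1, 16 and 1 of miR-223-3p and 2, 0 and 0 of miR-144-3p. miR-150-5p had 2, 4 and 2. In RA replicates 1 to 3 miR-142-3p had 319, 110 and 157 reads and miR-486-5p 402, 46 and 119. There miR-223-3p had 4, 4 and 50 reads, miR-144-3p 1, 0 and 2 and miR-150-5p 0, 0 and 73. Of endothelial miR-126-3p the controls held 5, 30 and 26 reads and the RA libraries 399, 0 and 80. miR-1-3p, a muscle miRNA sharing its seed with miR-206, had 2, 3 and 4 reads in the controls and 3, 0 and 1 after RA. Within the chromosome 1 cluster, miR-429 had 12 reads over the controls against 1527 of miR-200b-3p and 437 of miR-200a-3p.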
